A study of Carassius gibelio with 4 samples.

Results

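In the liver of gibel carp (Carassius gibelio), 137 of 56011 gene IDs had at least 2-fold more signal in strain F than in strain A on each of 2 diets and met fixed limits on level. These members were chosen by the measured levels themselves. The mean over the 4 libraries had to lie from 20 to under 1000 FPKM, strain F on rapeseed meal had to stand at 10 or more, at least 1 strain A library had to be above 0, and log2(value + 1) had to be at least 1 higher in strain F on rapeseed meal and on fishmeal. No header names the unit. The values look like FPKM, fragments relative to transcript length and library size, times 1 factor per library, and they are called FPKM below and used on the scale as deposited. Since the levels chose the members, the height of the strain difference is a description and no finding, and no test is given for it.

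The study sequenced liver RNA of fish of the F strain and the A strain, each fed a rapeseed meal diet or a fishmeal diet and sampled 8 h after the last feeding. The groups are strain F on rapeseed meal, strain F on fishmeal, strain A on rapeseed meal and strain A on fishmeal, with 1 library each. How many fish went into each library is not in the labels, which also give no age, sex or origin of the fish. No difference between libraries has a replicate check, so values are compared by size alone.

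Gibel carp is a polyploid cyprinid that can reproduce by gynogenesis, in which sperm triggers development of the egg without passing on its genes, so that a strain can be kept as a clonal line. Polyploidy leaves several similar copies of many genes, which can differ in sequence and in use between lines. The liver takes up nutrients after a meal and sets their storage and release. Rapeseed meal is a plant protein source used to replace fishmeal, and it carries glucosinolates and phytate that fishmeal lacks.

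Each ID is an assembly code such as c8588_g1. The tables carry no gene names, and 0 IDs matched the RefSeq gene table of Carassius gibelio. No function, sequence or genome position is therefore given for any ID, and the liver label could not be checked against marker genes. IDs that share a c number are treated as belonging to 1 assembly component, as the naming implies. Because no function is known, the IDs below are ordered by how they behave and not by role.

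Absolute depth is unknown. Strain F on fishmeal listed 19015 IDs above 0, where the other libraries listed 44906 to 47839. In 3217 IDs whose low values in the other 3 libraries stepped in small whole multiples, 247 were above 0 in strain F on fishmeal, and 111 of these clustered at a value where 1 read of that library counted 54.3 times as much as 1 read of the others. Every statement on strain F with fishmeal carries the counting error of that low depth. The steps of the low values give a scale factor per library. Where both values are well above 1 FPKM, the factors add -0.32 to the log2 difference of strain F over strain A on rapeseed meal. On fishmeal they add -0.49. For rapeseed meal over fishmeal the factors add 0.60 in strain F and 0.43 in strain A for such values. Near 0 the shift is another amount, since differences are of log2(value + 1).

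Across the members, the level in strain F on rapeseed meal ran from 10.9 to 817 FPKM with a median of 40.9. In strain F on fishmeal it ran from 18.0 to 2474 FPKM with a median of 94.5. In strain A the median was 3.06 FPKM on rapeseed meal and 1.16 FPKM on fishmeal, with highest values of 111 and 268 FPKM. Of the 137 members, 4 were listed at 0 in strain A on rapeseed meal and 28 in strain A on fishmeal, while 105 were above 0 in both. The rule itself required a value above 0 in at least 1 strain A library and a lower level there. In whole liver, fewer cells of a type and less RNA per cell cannot be told apart. On rapeseed meal 44 members stood at 10 FPKM or more in strain A, 62 from 1 to 10 and 31 under 1, and on fishmeal the numbers were 35, 35 and 67.

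Added up, the members made 1.01% of all FPKM in strain F on rapeseed meal and 3.05% in strain F on fishmeal, against 0.0912% in strain A on rapeseed meal and 0.177% in strain A on fishmeal. The other IDs that met the same limits on level give the scale. The 3279 IDs within those limits, members included, had medians of 46.0 and 37.2 FPKM in strain F on rapeseed meal and fishmeal, against 45.9 and 42.7 FPKM in strain A. By their medians the members were near the usual level of such IDs in strain F on rapeseed meal. They were above it in strain F on fishmeal and below it in strain A on both diets. The rule set no limit against these medians, but it required strain A to lie below strain F. A high strain F fishmeal value also helped an ID to reach the mean limit. The sums and positions follow in part from the choice, so nothing is read from them.

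**Figure D1:**
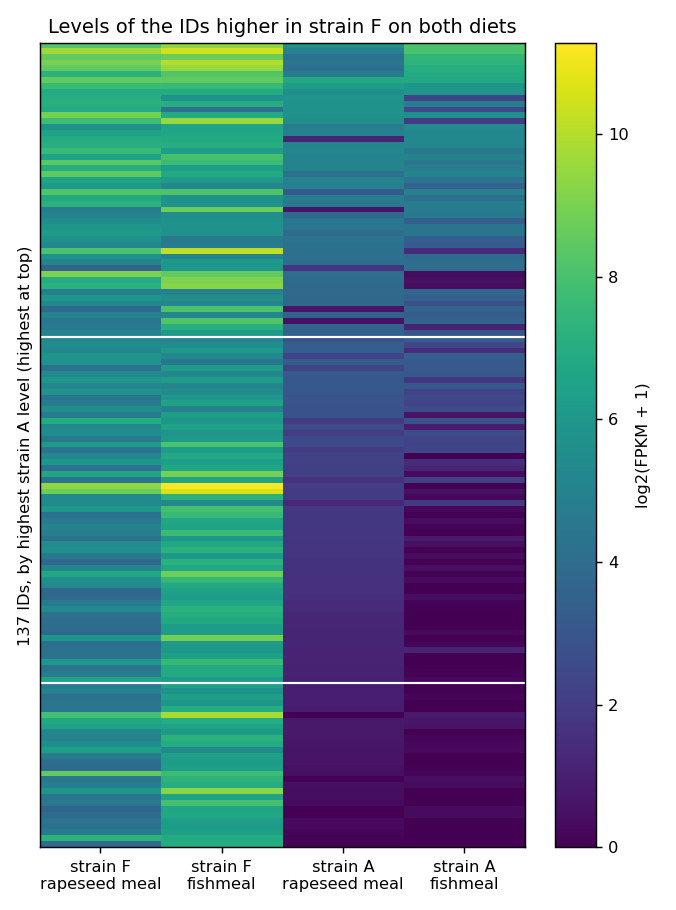
Levels of the 137 members as log2(FPKM + 1), 1 row per ID and 1 column per library, ordered by the higher of the strain A levels, with white lines at 10 and 1 FPKM. The 50 rows above the upper line have visible levels in strain A, whereas the 28 rows under the lower line are nearly dark in both strain A columns.

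The size of the strain difference varied widely. On rapeseed meal the log2 difference of strain F over strain A had a median of 3.15 and a range of 1.001 to 8.04. There 31 members were at 1 to under 2, 71 at 2 to under 4, 29 at 4 to under 6 and 6 at 6 or more. On fishmeal the median was 5.60 and the range 1.01 to 11.27, with 32, 24, 24 and 57 members in the same classes. Low strain A values pull on these figures through the pseudocount of 1. Among members above 0 in the strain A library, the median log2 difference was 3.06 on rapeseed meal (133 members) and 3.78 on fishmeal (109 members), and the median ratio of levels was 11.6 and 16.8.

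Within the limits on level, 6.59% of the 3279 IDs passed the fold limit on rapeseed meal, 9.15% on fishmeal and 4.18%, which are the 137 members, on both. The medians over all 3279 IDs were -0.03 on rapeseed meal and -0.37 on fishmeal. The rule used these contrasts, so nothing is read from the comparison. In 99 members the difference was larger on fishmeal and in 38 it was larger on rapeseed meal. The gap reached 1 or more on the log2 scale in 81 members toward fishmeal and in 14 toward rapeseed meal. Of the members, 74 reach a mean of 20 FPKM only through strain F on fishmeal. A high value there also enlarges the fishmeal difference. No share over all 3279 IDs is given, so nothing is read from these counts. Across the members the differences on the 2 diets had a Pearson r of 0.60 and a Spearman rho of 0.60 (n = 137 IDs of the same 4 libraries, each cut off below at 1).

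**Figure D2:**
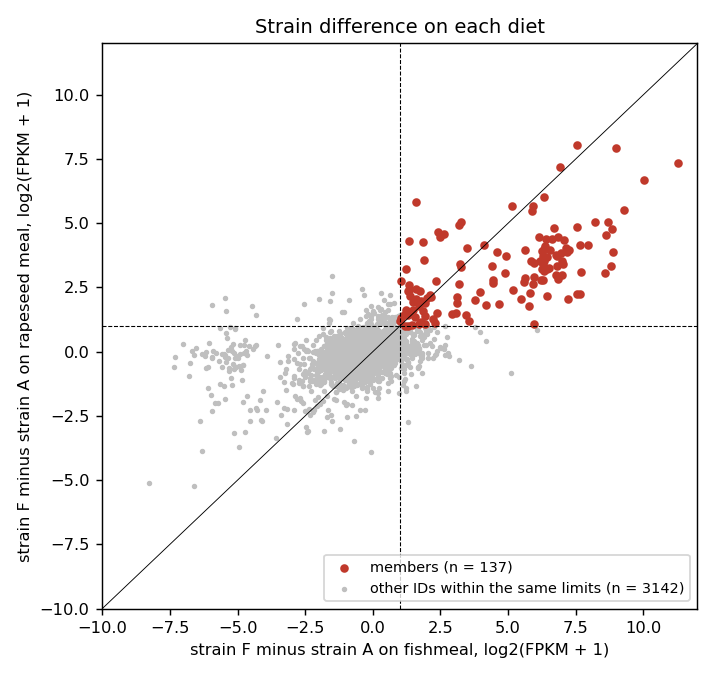
Difference of strain F minus strain A in log2(FPKM + 1), on fishmeal (x axis) and on rapeseed meal (y axis), for the 137 members (red) and the 3142 other IDs within the same limits (grey). Dashed lines mark the limit of 1 and the solid line equal differences. Members right of the solid line, 99 of them, had the larger difference on fishmeal, where a high strain F value also helped an ID to pass.

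Ranked by the smaller of their differences on the 2 diets, c8588_g1 and c26076_g1 led the members. c8588_g1 stood at 242 FPKM in strain F on rapeseed meal and 882 on fishmeal, and in strain A it was listed at 0 on rapeseed meal and at 0.735 FPKM on fishmeal. c26076_g1 had 361 FPKM on rapeseed meal and 212 on fishmeal in strain F, against 0.374 and 0.139 FPKM in strain A. Its level in strain F was 965 times that in strain A on rapeseed meal and 1523 times on fishmeal. These ratios divide by very low strain A values, so their size is uncertain, and they hold for this ID and not for its whole component. In both IDs strain A was close to nothing on either diet, but the strain F libraries were ordered in opposite ways on the deposited scale. The log2 difference of rapeseed meal over fishmeal in strain F was -1.86 for c8588_g1 and 0.77 for c26076_g1. The library factors add 0.60 to each.

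The highest mean levels belonged to c32500_g3 and c24620_g1. c32500_g3 had 670 FPKM on rapeseed meal and 2474 on fishmeal in strain F, against 3.10 FPKM and a listed 0 in strain A. c24620_g1 stood at 817 and 1410.4 FPKM in strain F, against 31.4 and 263 FPKM in strain A. This second ID was well expressed in strain A on fishmeal, so its strain difference was 26.0 times on rapeseed meal and 5.36 times on fishmeal.

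At the other end, c34672_g1 and c33335_g1 lay just inside the limit on fold. c34672_g1 had 28.6 FPKM on rapeseed meal and 29.8 on fishmeal in strain F, against 13.8 and 12.3 FPKM in strain A. c33335_g1 stood at 52.2 and 97.6 FPKM in strain F, against 25.6 and 39.3 FPKM in strain A. Just outside were c33107_g3 and c39098_g1, whose smaller log2 differences were 0.995 on rapeseed meal and 0.994 on fishmeal. c33107_g3 stood at 27.7 and 35.6 FPKM in strain F, against 13.4 and 11.7 FPKM in strain A. c39098_g1 stood at 305 and 257 FPKM in strain F, against 112 and 128 FPKM in strain A. The values on either side of the limit are close.

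The other limits also shaped the list. Over all levels 1320 IDs passed the fold limit on both diets, and 1157 of them had a mean under 20 FPKM while 2 had a mean of 1000 or more. Of the 161 between those limits, 22 were listed at 0 in both strain A libraries and 6 stood under 10 FPKM in strain F on rapeseed meal, with 4 in both classes. With the library factors divided out 246 IDs met the rule, 136 of the 137 among them, and with a mean of 50 FPKM required 51 did.

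The strain difference is set out here by the level in strain A, with class limits set after the values were seen. The strain A level is part of that difference, so larger differences in the lower classes follow in part from the split. Members low in strain A also have to reach the mean limit through strain F, on fishmeal or rapeseed meal. In 50 members strain A reached 10 FPKM or more on at least 1 diet, and their median levels were 121 and 117 FPKM in strain F on rapeseed meal and fishmeal, against 19.9 and 20.04 FPKM in strain A. Their median log2 difference was 1.94 on rapeseed meal and 1.86 on fishmeal, so the medians were about equal on both diets. Single members differed in either direction: c33779_g1 had 3.06 on rapeseed meal and 8.60 on fishmeal, and c33732_g1 had 5.83 and 1.61. In 59 members the highest strain A level was 1 to 10 FPKM, with medians of 36.0 and 90.2 FPKM in strain F, against 2.55 and 0.328 FPKM in strain A. In the remaining 28 strain A stayed under 1 FPKM, with medians of 23.7 and 95.3 FPKM in strain F, against 0.388 and 0.020 FPKM in strain A. In these lower classes the median log2 difference was 2.99 and 4.12 on rapeseed meal and 5.93 and 6.40 on fishmeal.

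The strain F fishmeal library entered the rule, so the choice was repeated without it. With the mean taken over the other 3 libraries and the rapeseed meal pair alone, 154 of 3342 IDs passed the fold limit, with a median log2 difference of 1.62. Strain F on fishmeal was not used in that choice, while strain A on fishmeal entered through the mean. On fishmeal 64 of the 154 (41.6%) had at least 2-fold more in strain F and 26 (16.9%) at least 2-fold less, 14 of the 154 being listed at 0 in strain F. Among all 3342 IDs 5.09% were 2-fold higher and 25.0% 2-fold lower on fishmeal. The median log2 difference on fishmeal was 0.63 for the 154 IDs and -0.48 for all 3342. Of the 137 members, 63 were among the 154, which is 46.0% of the members and 40.9% of the IDs so chosen. The remaining 74 members had a mean under 20 FPKM without the strain F fishmeal library and owe their place to its value.

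The number of reads behind a strain F fishmeal value can be bounded from below where another library shows a low value of the same ID, if that low value is at least 1 whole read. RSEM, which the submitters name, can assign fractions of reads, in which case the bound fails. By this measure 38 members had at least 10 reads in strain F on fishmeal, 46 had at least 1 to 10, and for 53 the bound was under 1 and gives no information. The highest bound was 146 reads and the median 2.24. The bound grows with the strain F fishmeal level itself and with a low level in another library, so the diet and strain differences are not compared between its classes.

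Within strain F, most members were lower on rapeseed meal. The log2 difference of rapeseed meal over fishmeal ran from -4.10 to 2.67 with a median of -1.53. It was -1 or lower in 78 of 137 members (56.9%) and 1 or higher in 9 (6.57%), with 50 between. Among all 3279 IDs within the limits, 5.61% were 2-fold lower and 23.1% 2-fold higher on rapeseed meal in strain F, and the median was 0.50. The rule used both libraries of this pair, and a high strain F fishmeal value helped an ID to pass, so the members' count is not read against that background. It differed by level: all 29 members under 20 FPKM in strain F on rapeseed meal were 2-fold lower there than on fishmeal, as were 32 of 49 at 20 to 50 FPKM, 6 of 23 at 50 to 100 and 11 of 36 at 100 or more. Among all IDs within the limits the shares 2-fold lower in the same classes were 29.7%, 4.83%, 2.16% and 1.68%, so they too fell with level. Since strain A lies at least 2-fold lower on each diet, a member under 20 FPKM in strain F on rapeseed meal reaches a mean of 20 only through a higher strain F fishmeal value.

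Of the 63 members that reach a mean of 20 FPKM without the strain F fishmeal library, 17 were 2-fold lower and 9 were 2-fold higher on rapeseed meal in strain F, with a median of 0.026. Of the 154 IDs chosen without that library, 18 were 2-fold lower and 57 were 2-fold higher, with a median of 0.68. With the library factors divided out, the median of the 137 members was -2.12, with 88 lower and 2 higher, and that of all IDs within the limits -0.09.

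**Figure D3:**
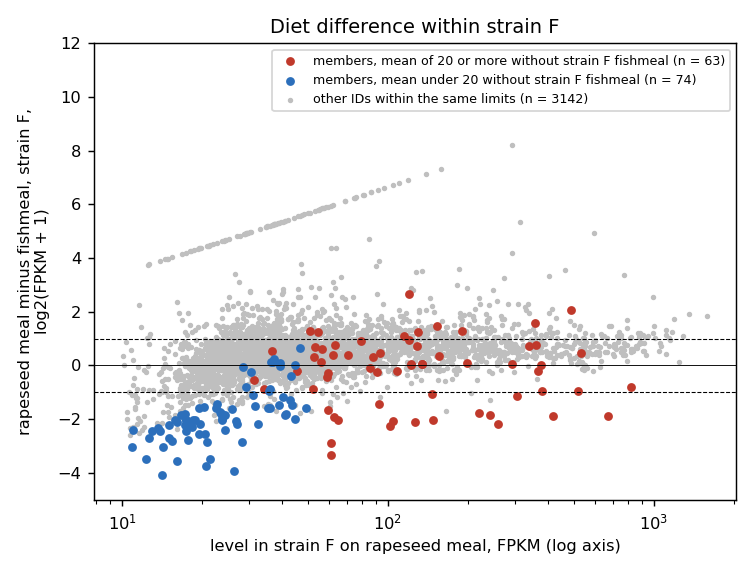
Difference of rapeseed meal minus fishmeal within strain F in log2(FPKM + 1), against the level in strain F on rapeseed meal in FPKM on a log axis, for the 63 members with a mean of 20 or more without strain F fishmeal (red), the 74 others (blue) and the 3142 other IDs within the same limits (grey). Blue points lie mostly under -1, red points lie on both sides of 0, and the grey streak at upper left holds IDs listed at 0 in strain F on fishmeal.

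The diet responses of the members were not all alike in strain F. On the log2 scale 51 members lay between -2.5 and -1.5 and 18 lay lower still. Shares of all IDs within the limits in these ranges are not given. A high strain F fishmeal value helped an ID to pass, so nothing is read from these counts. The 2 members most raised on rapeseed meal were c31530_g1 and c20953_g1. c31530_g1 stood at 120 FPKM on rapeseed meal and 18.0 on fishmeal in strain F, against 53.5 and 4.53 FPKM in strain A, so it was higher on rapeseed meal in both strains. c20953_g1 had 488 FPKM on rapeseed meal and 116 on fishmeal in strain F, against 50.9 and 49.0 FPKM in strain A, where the diets differed little. For neither ID does the read bound say how many reads lie behind the fishmeal value.

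The lowest diet differences in strain F belonged to 3 members of component c34074, which holds 5 IDs. c34074_g1 stood at 26.5 FPKM on rapeseed meal and 420 on fishmeal in strain F, against 0.561 and 23.2 FPKM in strain A. c34074_g2 stood at 20.7 and 293 FPKM in strain F, against 0.468 and 11.1 FPKM in strain A. c34074_g3 stood at 14.1 and 258 FPKM in strain F, against 0.495 and 11.2 FPKM in strain A. These 3 members were lower on rapeseed meal in both strains, with log2 differences of -3.76 to -4.10 in strain F and -3.03 to -3.95 in strain A, and all stood above strain A on either diet. The read bound for the strain F fishmeal values of c34074_g3, c34074_g2 and c34074_g1 was 18.2, 21.8 and 26.2 reads. It holds only if the low strain A values are whole reads. The other IDs of the component, c34074_g4 and c34074_g5, had mean levels of 4.13 and 1.09 FPKM and diet differences of 0.37 and 1.22 in strain F.

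Component c32500 also held 3 members, and these moved in another way. c32500_g2 stood at 419 FPKM on rapeseed meal and 1539 on fishmeal in strain F, against 3.06 and 0.467 FPKM in strain A. c32500_g1 stood at 23.8 and 99.1 FPKM in strain F, against 2.55 and 0.288 FPKM in strain A. Together with c32500_g3 they were lower on rapeseed meal in strain F, with log2 differences of -1.88 to -2.02, and higher on rapeseed meal in strain A, with 1.46 to 2.04. Strain A stood at 3.10 FPKM or lower for each of them on either diet.

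In strain A the median log2 difference of rapeseed meal over fishmeal was 0.54 over the members, with 44 members (32.1%) 2-fold higher, 13 (9.49%) 2-fold lower and 80 between. Within the limits on level 8.87% of IDs were 2-fold higher and 2.93% 2-fold lower on rapeseed meal in strain A, with a median of 0.14. The library factors add at most 0.43 here, and less near 0. With them divided out the members' median was 0.29, with 32 higher and 18 lower, and that of all IDs within the limits -0.28. With the members also chosen anew on that scale, the median over the 246 IDs was 0.091. Many members are near 0 in strain A, where small absolute changes give large ratios, and both strain A libraries entered the rule. Set side by side, 35 members were 2-fold lower in strain F and 2-fold higher in strain A, 6 were lower in both and 2 higher in both, and 36 differed by less than 2-fold in both. Of all IDs within the limits 1.34% were lower in strain F and higher in strain A, 0.549% lower in both, 4.27% higher in both and 65.9% under 2-fold in both. No member was 2-fold higher in strain F and 2-fold lower in strain A (0 of 137), where 0.213% of all IDs within the limits were. The rule used all 4 libraries, so nothing is read from these shares. The 6 lower in both include the 3 members of c34074.

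The 35 members with opposite responses had medians of 38.9 FPKM on rapeseed meal and 145 on fishmeal in strain F, and of 2.29 and 0.089 FPKM in strain A. c33779_g1 and c30841_g1 had the largest gap between the diets in their strain difference. c33779_g1 stood at 126 FPKM on rapeseed meal and 549 on fishmeal in strain F, against 14.3 and 0.417 FPKM in strain A. c30841_g1 stood at 147 and 605 FPKM in strain F, against 13.9 and 0.347 FPKM in strain A. The pair have nearly the same profile in all libraries. Their read bounds in strain F on fishmeal were 34.1 and 45.2 reads, which again need whole reads behind the low strain A values.

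**Figure D4:**
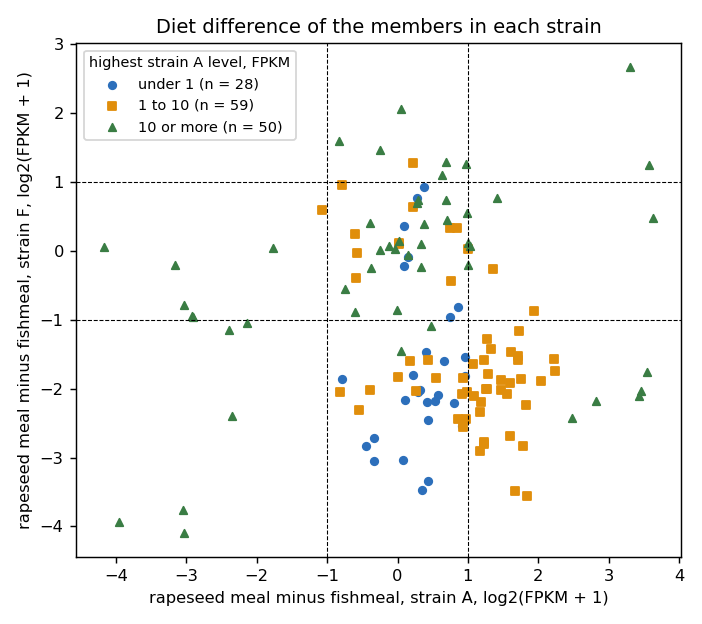
Difference of rapeseed meal minus fishmeal in log2(FPKM + 1) in strain A (x axis) and strain F (y axis) for the 137 members, by the higher of the strain A levels in FPKM, with dashed lines at -1 and 1. The lower right corner holds 35 members and the upper left corner 0, and members at 10 FPKM or more in strain A (triangles) have 13 points at -1 or below and 8 at 1 or above in strain F.

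Of the members with 10 FPKM or more in strain A, 13 of 50 were 2-fold lower and 8 were 2-fold higher on rapeseed meal in strain F. Of those at 1 to 10 FPKM, 44 of 59 were lower and 1 higher, and of those under 1 FPKM 21 of 28 were lower and 0 higher. A member with little signal in strain A has to reach the mean limit of 20 FPKM through strain F. A high strain F fishmeal value helps it to do so. Shares of all IDs within the limits are not given by strain A level, so nothing is read from these counts. The members most raised on rapeseed meal in strain A had 10 FPKM or more there. c26622_g1 stood at 533 FPKM on rapeseed meal and 382 on fishmeal in strain F, against 15.1 and 0.298 FPKM in strain A. c34654_g1 stood at 130.1 and 54.5 FPKM in strain F, against 55.8 and 3.75 FPKM in strain A. In c34654_g1 both strains were higher on rapeseed meal, while c26622_g1 differed by less than 2-fold in strain F.

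The opposite occurred as well. c33732_g1 stood at 122 FPKM on rapeseed meal and 117 on fishmeal in strain F, against 1.15 and 37.7 FPKM in strain A. c16642_g1 stood at 368 and 424 FPKM in strain F, against 17.6 and 166 FPKM in strain A. On the deposited scale strain F held a like level on both diets in these IDs, and strain A was lower on rapeseed meal. The strain difference was thus larger on rapeseed meal, at 106 and 20.9 times, than on fishmeal, at 3.11 and 2.56 times. The log2 diet differences in strain F were 0.05 and -0.21. The library factors add 0.60 to each, so the likeness depends on the scale. The read bound in strain F on fishmeal was 3.56 reads for c33732_g1, if whole reads lie behind the low strain A value. For c16642_g1 the bound was 0.84 and gives no information.

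The members came from 121 components. Of the 137, 62 were the only ID of their component and 75 (54.7%) shared one with other IDs, against 51.0% of all IDs within the limits on level. In 14 components 2 or more IDs were members, 30 members in all. For the 18 pairs of members within 1 component, the gap in the strain F diet difference had a median of 0.28 on the log2 scale. It ranged from 0.01 to 2.29, and 12 pairs lay within 0.5. Over all pairs of members the median gap was 1.39. Components c32500 and c34074, with 3 members each, give several of the close pairs. Both strain F libraries entered the rule, and no gap is given for such pairs among all IDs within the limits. Nothing is therefore read from these gaps. The closest pair was c32500_g2 and c32500_g3, described above, and the widest gap was in c29353, both chosen for mention after their values were seen. c29353_g1 had 24.5 FPKM on rapeseed meal and 90.2 on fishmeal in strain F, against 6.30 and 4.001 FPKM in strain A. c29353_g2 had 93.5 FPKM on rapeseed meal and 68.3 on fishmeal in strain F, against 30.5 and 18.3 FPKM in strain A. On the deposited scale the IDs of c29353 thus kept the strain order but had opposite diet orders in strain F. The log2 diet difference of c29353_g2 there was 0.45, less than the 0.60 that the library factors add. IDs of a component can share reads, which the authors' tools may divide between them, and how far that joins their values was not tested.

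The 59 member components with 2 or more IDs also held 103 other IDs, of which 84 had a mean of 1 FPKM or more. These other IDs were not chosen for their own values, apart from not passing the rule. The strain difference on rapeseed meal does not use the shallow strain F fishmeal library. There 34 of the 84 (40.5%) had at least 2-fold more in strain F, 11 (13.1%) were at least 2-fold lower and 39 lay between. Some of the 34 share a component, as in c30681 and c23974, so they are not independent. The median log2 difference over the 84 was 0.45. Among all IDs of that level in components of 2 or more IDs, 10.6% were 2-fold higher and 10.8% 2-fold lower in strain F on rapeseed meal. Whether reads shared with a member enter these values was not tested.

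On fishmeal 30 of the 84 (35.7%) were 2-fold higher in strain F and 26 (31.0%) 2-fold lower, where 15.8% and 44.6% of all such IDs were. On both diets 26 of the 84 were 2-fold higher in strain F and 11 were 2-fold lower, where 3.87% and 8.56% of all such IDs were. The 26 missed the rule by a mean under 20 FPKM (20 IDs) or by a listed 0 in both strain A libraries (15 IDs), some by both. Of the 11 lower IDs, which lie in 10 components, all were listed at 0 in strain F on fishmeal and 3 also on rapeseed meal. The shallow strain F fishmeal library listed 36996 of all 56011 IDs at 0. A share for IDs of like level is not given, so nothing is read from these zeros.

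The other IDs with the lowest strain difference on rapeseed meal are extremes and not typical, since the median over the 84 was 0.45. In component c26076, c26076_g2 had a listed 0 in both strain F libraries, against 49.0 FPKM on rapeseed meal and 41.3 on fishmeal in strain A. Its members ran the other way: c26076_g3 stood at 156 and 121 FPKM in strain F, against 0.067 FPKM on rapeseed meal and a listed 0 on fishmeal in strain A, much like c26076_g1 above. In these libraries c26076_g1 and c26076_g3 were near 0 in strain A, and c26076_g2 was at 0 in strain F. Added up, the IDs of c26076 stood at 517 and 333 FPKM in strain F, against 49.5 and 41.5 FPKM in strain A.

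In component c30556 the picture was similar but less complete. c30556_g1 stood at 0.289 FPKM on rapeseed meal and a listed 0 on fishmeal in strain F, against 64.8 and 53.3 FPKM in strain A. c30556_g3 stood at 163 and 33.6 FPKM in strain F, against a listed 0 in both strain A libraries. The member, c30556_g6, stood at 46.6 and 29.5 FPKM in strain F, against 6.07 and 5.07 FPKM in strain A. Among the other IDs c30556_g3 had the largest difference toward strain F on rapeseed meal, followed by c23974_g3, at 23.0 and 188 FPKM in strain F, against a listed 0 in both strain A libraries. The member beside it, c23974_g1, stood at 60.9 and 462 FPKM in strain F, against 1.24 FPKM and a listed 0 in strain A.

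**Figure D5:**
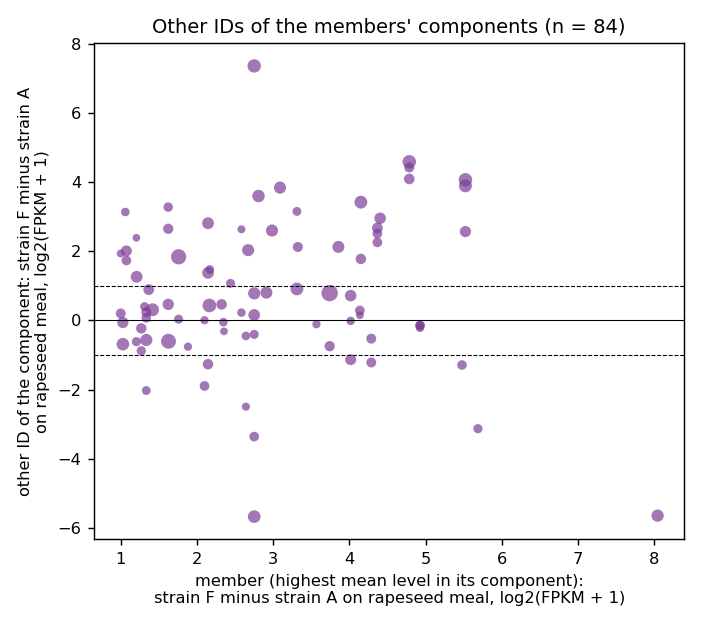
Difference of strain F minus strain A on rapeseed meal in log2(FPKM + 1) for the 84 other IDs of the members' components (y axis) against that of the member with the highest mean level in the component (x axis), with point size growing with the other ID's mean level. Of the points, 34 lie at 1 or above and 11 at -1 or below.

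The FPKM of all IDs of each component were also added up. Of the 59 components with 2 or more IDs, 52 had at least 2-fold more in strain F on rapeseed meal, 48 on fishmeal and 47 on both, and 0 were 2-fold lower on rapeseed meal. The median log2 difference of the sums on rapeseed meal was 2.30, where that of the members in them was 2.91. In 7 components the sum on rapeseed meal differed by less than 2-fold, the lowest at -0.29. That was c32372, chosen for mention after its values were seen, whose IDs summed to 214 and 118 FPKM in strain F on rapeseed meal and fishmeal, against 262 and 126 FPKM in strain A. In c32372 the member c32372_g2 had 53.3 FPKM on rapeseed meal in strain F, against 16.6 FPKM in strain A, and the other ID, c32372_g1, had 161 FPKM in strain F, against 245 FPKM in strain A. On fishmeal the sums of c30556 and c30728 were also lower in strain F, with log2 differences of -0.25 and -0.24 on the deposited scale. The library factors add -0.49 to each. The sums hold the members that were chosen for being high in strain F, so they are a description. No share over all components is given, so nothing is read from the counts.

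The IDs outside the list whose levels in the 4 libraries were most like the median member were c15532_g2 and c33703_g1, at distances of 1.26 and 1.53 in log2(value + 1) over the 4 libraries, where the members had a median distance of 2.40. c15532_g2 had 22.9 FPKM on rapeseed meal and 53.0 on fishmeal in strain F, against 1.86 and 1.36 FPKM in strain A. c33703_g1 stood at 16.9 and 55.4 FPKM in strain F, against 2.85 and 2.09 FPKM in strain A. Both missed the list by their mean levels of 19.8 and 19.3 FPKM.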

How the data were processed

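Each library came as 1 table of 56011 IDs. The submitters' processing notes name the tools Bowtie 1.0.1 and RSEM 1.2.17 but not what each did, and the assembly behind the IDs is not stated in the labels or files used here. Per the labels' protocols, RNA was taken from frozen liver with Trizol. No header states the unit. The deposited numbers look like FPKM times 1 factor per library, since 100% of values under 3 lay within 0.0006 of whole multiples of a fixed step in each library (8.98 to 17.0% would by chance). The factors were 1.07 (strain F, rapeseed meal), 0.705 (strain F, fishmeal), 1.34 (strain A, rapeseed meal) and 0.993 (strain A, fishmeal).

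The deposited scale was kept. Differences are of log2(value + 1), which understates the change of low IDs. With 1 library per group no test was run. Named IDs are at most 2 at each end of a ranking, all members of up to 2 components with 3 or more members, and the members beside the other IDs named. The members, lists and rules were chosen with earlier results of these data known. The selection and scale steps were run on simulated data with another depth ratio than the one found here. There the library factors were divided out before selection, whereas the list was chosen on the deposited scale. That run therefore does not test the list as chosen. Python 3.11.15, numpy 2.4.6, pandas 2.3.3 and matplotlib 3.10.9 were used. Absolute depth is unknown, so no counting interval is given.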

Additional observations from a re-analysis of the deposited data

Results flagged for a closer look

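The median diet differences of the members had opposite signs in the strains: the median log2 difference of rapeseed meal over fishmeal was -1.53 in strain F and 0.54 in strain A, a gap of -2.07. In strain F the median was 0.026 over the 63 members that meet the level limits without its fishmeal library. In strain A it was 0.29 for the same members with the library factors divided out, and 0.091 over the 246 IDs chosen anew on that scale. Among the IDs named, 6 members were at least 2-fold lower on rapeseed meal in strain F and at least 2-fold higher in strain A. The gap between the strains in this log2 difference, strain F less strain A, was -5.54 for c33779_g1, -5.49 for c30841_g1, -4.07 for c23974_g1, -3.92 for c32500_g3, -3.48 for c32500_g1 and -3.34 for c32500_g2. With 1 library per group none of these gaps was tested, and all rest on the shallow strain F fishmeal library, which also entered the choice of members. c23974_g1 and c32500_g3 were listed at 0 in strain A on fishmeal, so their gaps depend on the pseudocount.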

How the results depend on the processing

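The rule fixes the sign of the strain medians. With a pseudocount of 5 they were 2.19 on rapeseed meal and 3.93 on fishmeal, and with the mean limit raised to 50 they were 3.86 and 4.12 over 51 members, of which 25 were 2-fold lower on rapeseed meal in strain F. With the library factors divided out 246 IDs met the rule, 136 of them among the 137, with strain medians of 2.36 and 3.03, and 128 were 2-fold lower and 5 were 2-fold higher on rapeseed meal in strain F. Over the same 137 members with the factors divided out, an alternative added after seeing the data, the median diet difference was -2.12 in strain F, with 2 members 2-fold higher. Members that met the level limits without the strain F fishmeal library, also added after seeing the data, had a median diet difference in strain F of 0.026, on the other side of 0, and 17 that were 2-fold lower. That library enters the mean, so leaving it out changes which members meet the limits. What else sets those members apart was not tested. Of the other IDs of the components, 16 were higher and 2 lower in strain F on rapeseed meal at a mean of 10 or more. Around the 154 IDs chosen without strain F on fishmeal, also an added alternative, 45 of 146 other IDs were higher and 18 lower. For neither of these settings is a share over all such IDs given, so the counts have no background. The other 37 of the 55 values computed kept their sign; counts among them moved by at most 1.5 times and log2 medians by at most 0.58. The diet difference in strain F has no value without its fishmeal library. No paired analysis was possible because each group holds 1 library, the labels give no replicate numbers, and the strain contrast chose the members. Depth limits every strain F fishmeal value.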
